A study of Mus musculus with 42 samples.

Results

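The 47475 genomic regions described here are all those in the deposited list that set lung mesenchymal cells grown on a soft gel against cells taken fresh from the lung. The 6 deposited ATAC lists of the series hold 156984 regions in all. ATAC-seq measures where DNA is accessible, because a transposase inserts sequencing adapters into DNA that is not packed away. For each region the list gives a log2 read concentration in each group, and the difference used throughout is the concentration on 0.2 kPa minus that in sham. By this difference 5725 regions (12.1%) were higher on the gel and 41750 (87.9%) were lower. The authors listed a region where its FDR was at most 0.05 and its absolute log2 difference about 1 or more. From the listed p-values and FDRs about 55542 regions had been tested, so 10.3% of them were called higher and 75.2% lower. Every concentration, difference and FDR of a region is the authors' own value. The list holds 1 value per group, so no spread between ATAC libraries can be given.

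The cells came from CD1 mice with a Col1a1-GFP reporter, in which green fluorescence marks cells that use the promoter of a collagen I chain. GFP-positive cells negative for CD45, EpCAM and CD31 were sorted from digested lungs and either collected at once (sham) or grown for 5 days on collagen I-coated silicone of 0.2 kPa, in DMEM with serum. Each group had 3 ATAC and 3 RNA libraries, and 3 more of each came from gels of 32 kPa. A separate set of C57BL/6 mice gave Col1a2 lineage-traced mesenchyme after sham treatment and 14 or 56 days after bleomycin, a drug that scars the lung, with 4 ATAC libraries per group. Replicates carry numbers in the labels, with no word on whether each was its own animal or culture. An RNA p-value here therefore sets a difference against library spread that may be technical. Sham and gel cells passed through the same digestion and sort, but gel cells were collected only after 5 days of culture. Time since dissociation and culture on the gel therefore cannot be told apart. Ages are not used here. GFP from the Col1a1 reporter selects cells with an active collagen gene at the time of the sort. The sham RNA library with replicate number 2 stood apart on smooth muscle and mesothelial genes. Myh11, a smooth muscle myosin, had 967, 101.1 and 1070 CPM (reads scaled to the library's total) in the 3 sham libraries, and Wt1, a mesothelial factor, had 2.54, 17.9 and 2.14 CPM. Leaving it out of the list counts was chosen after seeing the data, and counts that moved by 2 or more genes are given beside them.

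Lung mesenchymal cells, mostly fibroblasts, lay down the collagen and elastin that hold the alveoli open. Promoters are the stretches next to a gene's start site where transcription begins, and enhancers are distant stretches that bind transcription factors and act on promoters from afar. AP-1 is a family of dimers of Fos and Jun proteins that bind enhancers in cells that have been stimulated or wounded. TEAD proteins, the DNA-binding partners of the mechanical sensors YAP and TAZ, and RUNX proteins often bind near AP-1.

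The sequences of the regions that rose most are shown because motif letters set higher and lower regions apart. Below are the 6 regions with the largest rise, on the plus strand of mm10, each named by its nearest coding gene. Capitals mark matches to the AP-1 motif TGANTCA, the TEAD motif GGAATG and the RUNX motif TGTGGT, on either strand.
Iqschfp, chr3:67962066-67962215: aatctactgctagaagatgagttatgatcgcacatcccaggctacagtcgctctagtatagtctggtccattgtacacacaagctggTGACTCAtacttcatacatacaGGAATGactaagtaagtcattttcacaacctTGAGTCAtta
Hdgfl1, chr13:26217381-26217597: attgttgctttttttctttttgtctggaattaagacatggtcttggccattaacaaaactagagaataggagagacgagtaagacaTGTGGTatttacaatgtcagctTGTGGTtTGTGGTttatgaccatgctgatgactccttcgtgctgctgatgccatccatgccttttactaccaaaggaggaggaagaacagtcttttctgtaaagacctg
Fut9, chr4:25645627-25645899: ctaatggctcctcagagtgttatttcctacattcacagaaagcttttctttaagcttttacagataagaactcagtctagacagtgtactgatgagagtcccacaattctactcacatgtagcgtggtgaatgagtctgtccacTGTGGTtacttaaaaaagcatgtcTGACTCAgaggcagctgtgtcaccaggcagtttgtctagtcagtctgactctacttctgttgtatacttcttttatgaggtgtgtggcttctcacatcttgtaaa
Rab3b, chr4:108887543-108887720: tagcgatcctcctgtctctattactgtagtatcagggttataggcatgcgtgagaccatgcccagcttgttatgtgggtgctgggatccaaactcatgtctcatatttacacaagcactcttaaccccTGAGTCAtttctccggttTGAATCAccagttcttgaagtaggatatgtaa
Ankdd1b, chr13:96479724-96479862: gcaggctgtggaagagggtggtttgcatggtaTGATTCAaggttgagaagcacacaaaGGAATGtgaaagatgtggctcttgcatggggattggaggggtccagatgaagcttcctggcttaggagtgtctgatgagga
Sox6, chr7:116000415-116000637: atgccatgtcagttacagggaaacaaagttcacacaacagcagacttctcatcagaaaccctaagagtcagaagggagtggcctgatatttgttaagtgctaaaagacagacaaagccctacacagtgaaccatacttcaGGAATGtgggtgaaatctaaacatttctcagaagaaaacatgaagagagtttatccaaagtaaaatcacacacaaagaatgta

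AP-1 letters stood in 4 of these 6 regions, and each of the other 2 held a TEAD or a RUNX match. The Iqschfp region lies in an intron of that gene, 69.9 kb from its start site, and went from a sham concentration of -0.07 to 5.72, a log2 rise of 5.79. The Hdgfl1 region is intergenic, lies 553 kb from the start site, and rose by 5.77. The Fut9 region, in an intron, rose by 5.66, the Rab3b region, in an intron, by 5.45, the Ankdd1b region, intergenic, by 5.33, and the Sox6 region, in an intron, by 5.31. A sham concentration of -0.07 was the lowest in the list and was shared by 32 regions, so the size of such a rise depends on that floor. Sox6 encodes a transcription factor, and its RNA fell by 4.15 on the log2 scale while this region rose.

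Shown for contrast are 2 of the 6 regions with the largest fall, both shorter than 300 bases, which held none of these letters.
Bbox1, chr2:110273656-110273842: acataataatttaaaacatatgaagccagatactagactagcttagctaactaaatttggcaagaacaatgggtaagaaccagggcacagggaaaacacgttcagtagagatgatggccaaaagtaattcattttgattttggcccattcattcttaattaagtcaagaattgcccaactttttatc
Hsf2, chr10:57282550-57282703: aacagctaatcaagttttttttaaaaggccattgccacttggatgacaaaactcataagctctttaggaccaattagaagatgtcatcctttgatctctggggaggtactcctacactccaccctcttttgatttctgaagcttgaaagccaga

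The Bbox1 region, in an intron of the gene for a carnitine-making enzyme, went from 6.57 in sham to 0.77 on the gel, a difference of -5.80. The Hsf2 region, intergenic, differed by -5.40. Of the 6, 3 more lay in an intron of Plcl1 (-5.62) and in intergenic DNA nearest to Pla2g4a (-5.43) and N6amt1 (-5.38). The Plcl1 and N6amt1 regions, which are longer and not shown, held TEAD letters but no AP-1 or RUNX letters. The Pla2g4a region held none of these letters. Bbox1 RNA fell as well, by 4.59 on the log2 scale (SE 0.622, n = 3 per group, limma adjusted p = 5.76e-05).

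Gained and lost regions differed in kind. Promoters, here regions within 1 kb of a coding start site, were 14256 of the lower regions (34.1%) and 81 of the higher ones (1.41%). Of the higher regions 3265 were intergenic and 2314 intronic, and of the lower 15211 and 11365. The share of regions that were higher was 17.7% between genes, 16.9% in introns and 0.565% at promoters. That share went up with distance from a start site, from 11.4% at 1 to 10 kb to 24.7% beyond 100 kb. Higher regions were short and started low, with a median width of 221 bases and a median concentration of 3.33 in sham and 5.79 on the gel. Lower regions had a median width of 337 bases and went from 7.06 to 4.84. The direction of a region was set by these same concentrations. Within the list 187 higher and 1003 lower regions had an absolute difference of at most 1.1, and regions just under the limit are not analysed here.

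**Figure D1:**
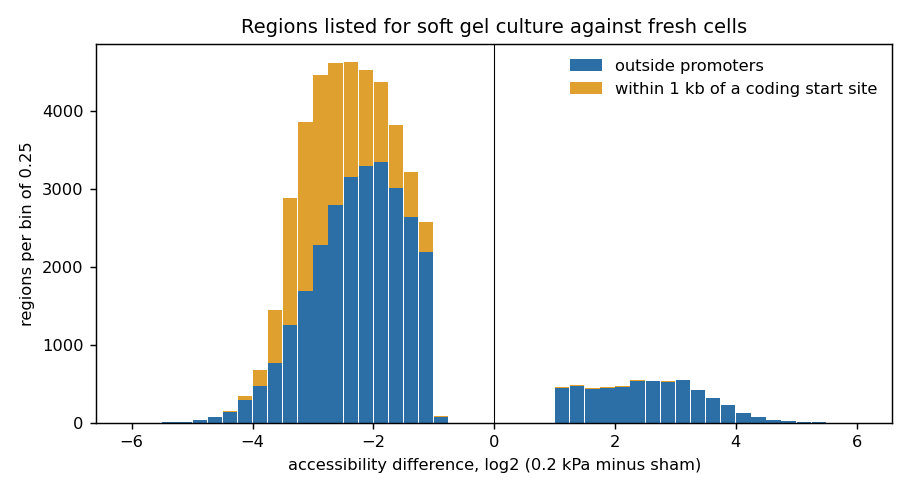
Number of listed regions by accessibility difference (x axis, log2, 0.2 kPa minus sham; bins of 0.25), split into 14337 promoter regions and 33138 regions outside promoters. The lower side holds nearly all promoter regions, and the gap around 0 is the fold limit of the list.

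The zero point of these differences is set by how the authors scaled their libraries, and no source used here states it. Promoter regions as a class had a median difference of -2.73, including promoters of genes whose RNA rose. With the differences set against that median, a choice made after seeing the data, 32978 regions lay above it and 14317 below, in place of 5725 and 41750. Set against the median of the whole list (-2.22), 23580 lay above and 23693 below. Directions of promoter regions are therefore directions on the deposited scale, and sizes are given below beside the median of -2.73. Both medians are negative, so the 5725 higher regions stay above 0 on these scales by construction, which is no check of them.

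The sequence of the 2 directions differed. AP-1 letters were in 63.9% of higher regions and 17.1% of lower ones. Outside promoters, where widths still differed, the central 200 bases held AP-1 in 63.1% of higher and 16.1% of lower regions, and in 5.48% of all RefSeq start-site windows cut to the same length. In the central 200 bases of all regions TEAD letters were in 28.6% of higher and 11.8% of lower regions, and RUNX letters in 27.2% and 11.3%. None of the 3 motifs stood in the central 200 bases of 17.4% of higher and 69.5% of lower regions. AP-1 and RUNX stood together in 16.0% of higher and 1.49% of lower regions, and AP-1 and TEAD together in 15.5% and 1.73%.

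The AP-1 letters sat at the middle of gained regions. In the 20-base bins next to the centre 12.5% of higher regions had a match, against 0.943% in bins near 300 bases from the centre. In lower regions the same bins held 1.68% and 0.481%. TEAD and RUNX matches were also centred in higher regions, at 4.23% and 3.92% next to the centre and 1.26% and 1.48% near 300 bases from it. Higher regions had a median width of 221 bases, so the bins near 300 bases lie in DNA outside most of them. Base composition differs between the sets, with a median GC content of the central 200 bases of 46.5% in higher and 51.0% in lower regions outside promoters. Among regions outside promoters with a GC content of 45 to 50%, AP-1 was in 63.6% of 1903 higher and 18.9% of 6695 lower regions, and in the class from 50 to 55% in 64.3% of 1150 and 15.9% of 7525.

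**Figure D2:**
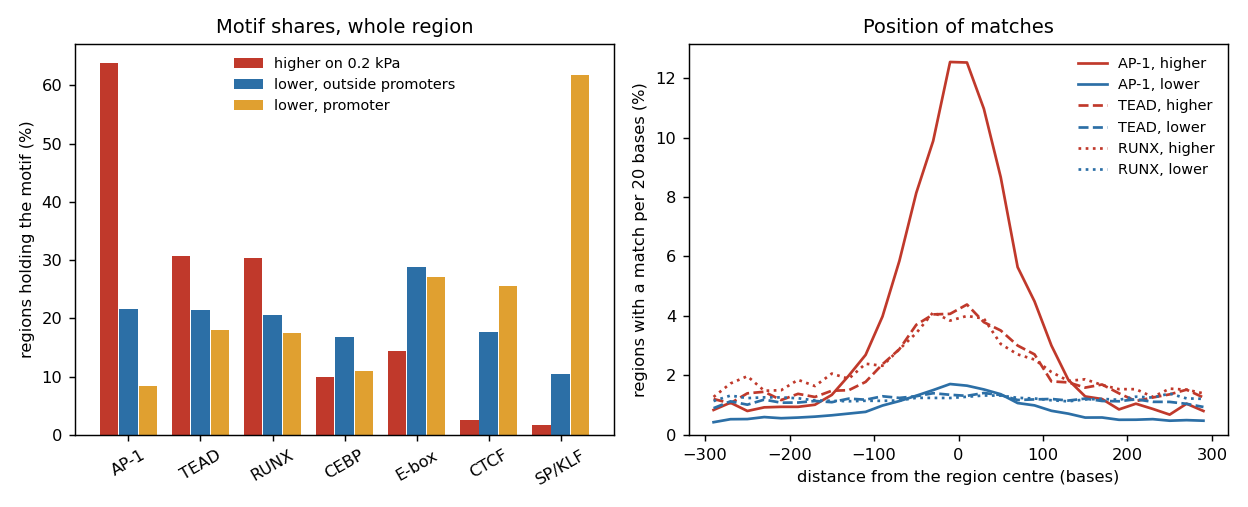
Left, share of regions holding each motif (y axis, %) in higher regions, lower regions outside promoters and lower promoter regions. Right, share of regions with a match per 20 bases (y axis, %) by distance from the region centre (x axis, bases). AP-1 stands at 63.9% of higher regions and peaks at their centre.

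Lower regions were rich in other letters. The CTCF motif, bound by a protein that holds chromatin loops, was in 20.3% of lower and 2.48% of higher regions. The SP and KLF motif GGGCGGG was in 61.7% of lower promoter regions, 10.5% of lower regions outside promoters and 1.69% of higher regions. The E-box CAGCTG, bound by factors such as TCF21 of lung fibroblasts, was in 28.2% of lower and 14.3% of higher regions. Lower regions are wider, and in the central 200 bases these shares were 17.5% and 12.3% for the E-box and 13.2% and 1.956% for CTCF. SP and KLF letters there were in 41.3% of lower promoter regions, 7.53% of lower regions outside promoters and 1.52% of higher regions. The C/EBP motif TTGCNNAA was in 8.70% of higher and 9.10% of lower regions in the central 200 bases. Outside promoters it was in 8.73% of higher and 11.7% of lower regions there.

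Among the lost regions outside promoters, the size of the loss went with sequence. Of the 4895 that differed by less than 1.5, AP-1 was in the central 200 bases of 26.8% and CTCF in 21.6%. Of the 556 that differed by more than 4, AP-1 was in 7.91% and CTCF in 2.52%. The deeper losses were wider, with a median width of 432.5 bases against 220 bases for the shallow losses. Their median sham concentration was 7.795 against 5.97, but the sham concentration is part of the difference that sets these classes. In higher regions the AP-1 share moved little with size, from 59.0% below 1.5 to 64.4% above 4.

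Most genes that encode AP-1 fell in RNA and 1 rose steeply. RNA was measured in other libraries of the same groups and tested with limma on log2(rescaled value + 1) over 18480 genes, of which 5896 (31.9%) were higher and 7239 (39.2%) lower on 0.2 kPa. Of 12 AP-1 genes 2 rose and 8 fell, with a median log2 change of -1.69 beside -0.22 over all genes tested. Fos, an immediate-early gene, had 2605, 2988 and 2627 CPM in the 3 sham libraries and 3.69, 4.33 and 4.88 on 0.2 kPa. All 3 gel libraries were far below all 3 fresh ones (log2 change -9.51, SE 0.18, adjusted p = 4.32e-11). Fosb fell by 6.53, Atf3 by 6.75, Jun by 3.77, Junb by 2.98 and Jund by 2.35 on the log2 scale. Time since dissociation also differed between the groups, and its part in these falls was not tested.

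Fosl1, which encodes the Fos relative FRA1 and is named here after its values were seen, went the other way. It had 1.27, 1.34 and 1.79 CPM in sham and 162, 188 and 230 CPM on 0.2 kPa. The groups did not overlap, and the log2 change was 6.83 (SE 0.23, adjusted p = 1.21e-09). Fosl2, encoding FRA2, had 233, 165 and 228 CPM in sham and 256, 238 and 240 CPM on the gel, and its difference of 0.05 did not pass the test (adjusted p = 0.754).

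Promoter regions of 11 of the 12 AP-1 genes were in the list. All 15 such regions were lower, as were 99.4% of all promoter regions in the list. Their median was -3.59 against -2.73 for lower promoter regions in general. The Fos promoter region went from 11.63 to 7.11 (-4.52). Of 11 distal regions nearest to Fos 10 were lower, down to -4.21, beside 85.4% of all distal regions within 100 kb. The Jund promoter region (-4.65) was among the 6 promoter regions with the largest fall, and the Junb promoter reached -4.53. Fosl1 had 1 lower promoter region of -1.66, a small loss beside other promoters, and 1 higher region 2.57 kb from its start site, which went from 2.76 to 5.73. That region at Fosl1 held a TEAD match and no AP-1 match.

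**Figure D3:**
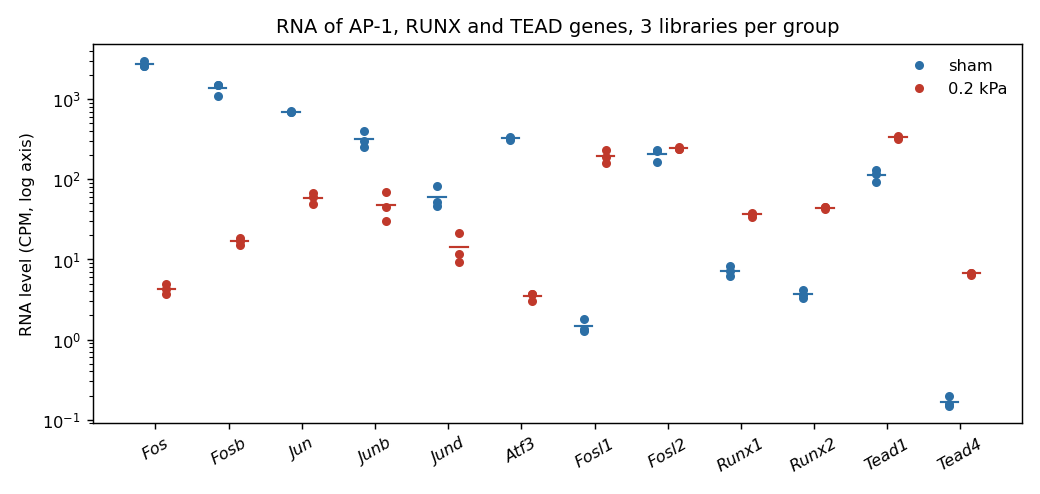
RNA level (y axis, CPM on a log axis) of 12 AP-1, RUNX and TEAD genes in 3 sham and 3 soft gel libraries. Points are libraries and bars their means. Fos, Fosb, Jun and Atf3 were lower in every gel library, and Fosl1, Runx1, Runx2, Tead1 and Tead4 higher.

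Among RUNX and TEAD genes, named after their values were seen, Runx1, Runx2, Tead1, Tead2 and Tead4 rose in RNA, Runx3 fell (-1.83, limma adjusted p = 0.00497) and Tead3 did not pass the test (0.26, adjusted p = 0.059). Runx1 had 6.17, 8.34 and 7.20 CPM in sham and 34.2, 38.3 and 37.4 CPM on 0.2 kPa, a log2 change of 2.15 (SE 0.14, limma adjusted p = 1.88e-07). Runx2, known for bone formation, had 4.14, 3.31 and 3.55 CPM in sham and 45.3, 45.0 and 43.1 on the gel (3.40, SE 0.11, adjusted p = 1.21e-09). Runx1 had 1 higher distal region (2.21) and 4 lower ones, down to -2.72, and Runx2 had 1 higher (1.89) and none lower. Tead1 rose by 1.38 and Tead4 by 4.98. Their promoter regions were lower on the deposited scale, with differences down to -3.26 at Tead1 and of -1.11 at Tead4. Of 20 genes in the list of RUNX and activation factors 12 rose and 3 fell in RNA, beside 31.9% and 39.2% of all genes. Of their promoter regions 25 of 26 were lower, as were 99.4% of all promoter regions in the list.

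In the list of YAP and TEAD targets and factors 11 of 18 genes rose and 3 fell in RNA, beside 31.9% and 39.2% of all genes tested, with a median log2 change of 1.01. Of the 11 targets 6 rose and 2 fell, and of the 7 factors (Yap1, Wwtr1, Tead1 to Tead4 and Vgll3) 5 rose and 1 fell. Distal regions nearest to the list were lower in 84.7%, beside 85.4% of all distal regions within 100 kb. Ankrd1, a classic target, had 10.2, 4.53 and 8.73 CPM in sham and 500, 495 and 455 CPM on 0.2 kPa (5.83, SE 0.24, adjusted p = 4.57e-09). Its 5 distal regions were all lower, down to -4.36. Ccn2, encoding the matrix protein CTGF, rose by 1.18 in RNA with 11 distal regions lower and none higher. F3, tissue factor, fell by 1.31 and had the deepest loss of the list's regions (-4.99). Nt5e, the ecto-enzyme CD73, had 3 higher distal regions, up to 3.71, and 2 lower ones, and its RNA fell by 5.68. At Ankrd1 and Ccn2 the nearest distal regions and the RNA went opposite ways.

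Promoters that gained accessibility were few, and most of their genes rose. Of 57 genes with only higher promoter regions 47 were tested, and 33 rose (70.2%) while 5 fell (10.6%), beside 31.9% and 39.2% of all genes tested. Their median log2 change was 2.31. Genes enter the test by their mean level, so a gene with 0 reads in sham, such as Gja3, enters only through gel libraries. With no filter on low values 60% of the genes with only higher promoter regions rose and 10.9% fell. With a mean of at least 10 these shares were 74.4% and 12.8%. Genes with only lower promoter regions fell about as often as all genes and rose more often: of 12182 tested, 4604 (37.8%) were higher and 4749 (39.0%) lower, with a median of -0.05. Genes whose promoter was in no region rose in 17.5% and fell in 47.1% of 3854 tested.

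Serpinb2, a protease inhibitor of the plasminogen system, had the third largest promoter rise. The part of its region before the start site is shown because it holds an AP-1 match, in capitals, close to the start.
Serpinb2, chr1:107511279-107511422: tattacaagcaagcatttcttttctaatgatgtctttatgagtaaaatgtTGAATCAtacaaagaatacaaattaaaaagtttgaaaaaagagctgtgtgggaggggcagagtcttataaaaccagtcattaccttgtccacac
Mmp10, chr9:7502171-7502341: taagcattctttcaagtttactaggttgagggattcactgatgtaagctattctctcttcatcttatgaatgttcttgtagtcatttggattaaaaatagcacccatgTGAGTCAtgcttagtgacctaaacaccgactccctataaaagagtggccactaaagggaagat

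The Serpinb2 region went from 2.16 to 5.97, a rise of 3.81. Serpinb2 RNA was 0.0882, 0.0443 and 0.0819 CPM in sham and 38.8, 37.5 and 30.8 CPM on 0.2 kPa, with a log2 change of 8.45 (SE 0.26, limma adjusted p = 7.76e-10). Mmp10, the protease stromelysin 2, is shown after its values were seen. Its promoter region rose by 3.06 and its RNA went from 0.300, 0.177 and 0.115 CPM to 29.0, 27.5 and 28.5 CPM (6.93, SE 0.28). The largest promoter rise was at Siglecg, a sialic acid-binding receptor (4.32), whose RNA went from 0.159, 0.354 and 0.426 CPM to 7.52, 6.34 and 7.47 CPM.

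The other promoters of the 6 with the largest rise belonged to genes with little or no RNA. Adh4, an alcohol dehydrogenase, had the second largest promoter rise and was below the level tested. Tph1, which makes serotonin, and the predicted genes 1700015G11Rik and Gm6650 had 0 reads in every sham library and at most 0.279 CPM on the gel. Hmga2, a fetal chromatin protein, had a modest promoter rise of 1.53, 4 lower distal regions and 1 higher one, yet its RNA went from 0.934, 0.576 and 0.688 CPM to 848, 833 and 782 CPM (9.92, SE 0.14). Of 14 oncofetal and placental genes 10 rose in RNA (71.4%, beside 31.9% of all genes) and 2 fell (14.3%, beside 39.2%). Prl2c2 and Prl2c3 are near-identical, so reads and regions may be shared between them, and each had higher distal regions, up to 4.06 and 2.41.

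Eln, the elastin gene, had the third largest promoter loss. The 200 bases before the Eln start site are shown with SP and KLF letters in capitals, and the 160 bases of the Fos region before its start site for comparison, with no such match.
Eln, chr5:134747324-134747523: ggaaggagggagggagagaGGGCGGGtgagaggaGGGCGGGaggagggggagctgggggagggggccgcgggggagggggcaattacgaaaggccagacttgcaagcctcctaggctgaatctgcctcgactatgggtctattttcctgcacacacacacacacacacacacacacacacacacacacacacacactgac
Fos, chr12:85473730-85473889: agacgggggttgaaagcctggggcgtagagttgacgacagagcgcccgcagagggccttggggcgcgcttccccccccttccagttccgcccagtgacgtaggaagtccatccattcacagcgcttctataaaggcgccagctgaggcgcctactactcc

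The Eln promoter region went from 10.72 to 5.94, a difference of -4.78 beside the promoter median of -2.73. All 8 distal regions nearest to Eln were lower, from -2.36 to -4.03. Eln RNA was 3408, 3429 and 4909 CPM in sham and 69.3, 121 and 152 CPM on 0.2 kPa (log2 change -5.35, SE 0.39, limma adjusted p = 3.87e-07). Promoters of Rela, an NF-kappaB subunit (-4.93), and Eif3j2 (-4.92) fell further in accessibility. Rela RNA changed by -0.57 and Eif3j2 RNA by 1.55.

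Extremes of promoter loss did go with RNA. Of 66 tested genes whose promoter differed by -4 or more, 47 (71.2%) were lower in RNA and 9 (13.6%) higher. Between -3.5 and -3, where promoters are most numerous, 36.3% of 3937 were lower and 40.1% higher. The shallowest promoter losses, above -1.5, had 41.3% lower and 32.4% higher.

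RNA calls went with the balance of distal regions. Each region outside promoters was assigned to the nearest coding start site within 100 kb, which took in 25180 regions, of which 14.6% were higher. Of 155 tested genes with 10 or more lower regions than higher ones, 71.0% were lower in RNA and 14.8% higher. With 1 more lower region the shares were 42.7% and 30.3%, and with 2 more higher regions they were 23.4% and 50.6%. The median log2 change went from -1.25 in the first of these classes to 0.50 in the last. Genes with 3 or more extra higher regions numbered 48, and 24 of them were higher in RNA and 13 lower.

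**Figure D4:**
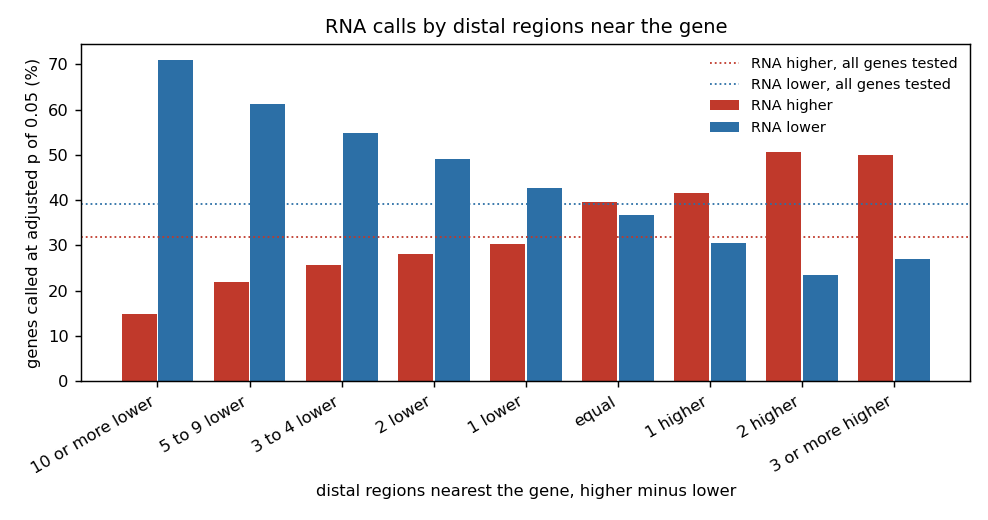
Share of tested genes called higher or lower in RNA (y axis, %) by the number of higher minus lower distal regions nearest the gene (x axis). Dotted lines give the shares over all 18480 genes tested. The share called lower goes from 71.0% at 10 or more extra lower regions to 23.4% at 2 extra higher ones.

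The genes with most gained regions were led by Bmpr1b, a BMP receptor, with 6 higher distal regions up to 3.79 and 1 lower. Its RNA was 3.02, 2.29 and 2.36 CPM in sham and 29.9, 25.96 and 23.2 CPM on 0.2 kPa (3.16, SE 0.17, limma adjusted p = 3.78e-08). Tnfsf11, encoding the bone cytokine RANKL, also had 6, up to 3.72, and 1 lower, with RNA of 0.194, 0.0443 and 0.180 CPM in sham and 0.647, 0.726 and 0.813 CPM on the gel (2.23, adjusted p = 0.0045). Next came 10 genes tied at 5 higher regions, of which 5 rose in RNA, 3 fell and 2 did not pass the test. Over all genes tested 31.9% were higher and 39.2% lower. Ank, a pyrophosphate exporter, rose by 2.24, and Basp1, a membrane protein with 3 lower distal regions as well, by 4.64. Fez2, Flt1 and Socs6 also rose. Fyb, an adaptor of leukocytes (-2.78, adjusted p = 0.000224), Gcnt1, a glycosyltransferase (-2.43, adjusted p = 0.0208), and Golim4, a Golgi protein (-0.33, adjusted p = 0.0193), fell. Adgrl4, an adhesion receptor of endothelium (0.50, adjusted p = 0.353), and Hacd4 (0.41, adjusted p = 0.118) did not pass.

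The genes with most lost regions were led by Nfia, a nuclear factor I gene, with 25 lower distal regions down to -4.19 and none higher. Nfia RNA was 170, 209 and 132 CPM in sham and 26.8, 26.7 and 27.3 CPM on the gel (-2.84, SE 0.16, adjusted p = 6.16e-08). Filip1l had 23 lower regions, Bcor, a transcriptional corepressor, 22, Septin9, a cytoskeletal filament protein, 21, and Irf2bp2, a transcriptional regulator, 19. Filip1l fell by 1.04 and Bcor by 0.77 in RNA, whereas Septin9 rose by 1.06 and Irf2bp2 changed by -0.12 without passing the test (adjusted p = 0.544).

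The list of fibrillar collagens and processing enzymes also holds the non-fibrillar Col6a1, Col6a2, Col6a3, Col12a1 and Col14a1. Its genes fell in RNA more often than all genes, 16 of 24 (66.7%, beside 39.2%), while 7 rose (29.2%, beside 31.9%), with a median of -1.84. Of their distal regions 117 were lower and 12 higher, 90.7% lower beside 85.4% of all distal regions within 100 kb. Their promoter median of -2.66 lay near the general -2.73. Lox, which cross-links collagen, rose by 3.07. Col3a1, which encodes the main chain of collagen III, had 11 lower distal regions, down to -4.46, and no higher one. Col3a1 RNA was 19607, 18473 and 26112 CPM in sham and 298, 298 and 284 CPM on 0.2 kPa (-6.37, SE 0.15, limma adjusted p = 1.29e-10). Col1a2 lost 10 distal regions and gained 2, up to 2.59, and fell by 2.25. Col6a1 fell by 6.48 with 8 lower distal regions, and Col5a1 by 2.65 with 12 lower and 1 higher (3.74).

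Elastic fibre and glycoprotein genes had 128 lower and 7 higher distal regions (94.8% lower, beside 85.4%), and 19 of 24 fell in RNA (79.2%) while 4 rose (median -2.43). Dcn, the proteoglycan decorin, fell by 7.25 with 8 lower distal regions, down to -4.49, and 1 higher. Ltbp4 and Mfap4, which assemble elastic fibres, fell by 7.18 and 8.07, and their promoter regions differed by -3.59 and -3.87. Fbn1, fibrillin, fell by 2.80 with 11 lower distal regions. Tnc, tenascin C, named after its values were seen, rose by 3.14 in RNA although its 7 distal regions were lower. Among matrix proteases and inhibitors 8 of 25 rose, a share (32%) at the background of 31.9%, and 14 fell (56%). Timp3, an inhibitor, had 12 lower distal regions and an RNA change of -2.14, and Adamts1, a protease, had 8 and -3.46.

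By count, transcription factors of lung mesenchyme had the most lower distal regions of any list, 171 against 7 higher (96.1% lower, beside 85.4%). By share the glucocorticoid and circadian list (98.8%) and the senescence and p53 list (96.3%) stood above them. In RNA 22 of the 30 lung mesenchyme factors fell (73.3%, beside 39.2%) and 4 rose, with a median log2 change of -1.95. Without the sham library that stood apart 19 fell and 5 rose. Tbx2, a lung bud factor, had 14 lower regions and fell by 1.90. Gli2, an effector of Hedgehog signalling, had 9 lower and 1 higher and fell by 4.18. Klf4 had a promoter region of -4.13 and RNA of 765, 655 and 729 CPM in sham and 77.0, 85.5 and 86.1 CPM on the gel. Zbtb16 and Klf9, both induced by glucocorticoids, changed by -4.91 and -3.45 in RNA. In the glucocorticoid and circadian list 82 of 83 distal regions were lower and 14 of 19 genes fell in RNA (73.7%), among them Dusp1 (-3.91), Hlf (-6.66) and Per2 (-2.66).

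Markers of resident fibroblast states fell in RNA more often than all genes (39.2%). Among adventitial markers 88 of 93 distal regions were lower (94.6%, beside 85.4% of all) and 19 of 20 genes fell (95%), led in accessibility by Dcn, Clec3b and C3, with Clec3b promoter and distal regions of -4.14 and -4.36. Sema3c in that list had 1 higher region of 4.73 that holds an AP-1 match and 2 lower distal ones, while its RNA fell by 1.92. Among alveolar and lipofibroblast markers 70 of 78 distal regions were lower, a share (89.7%) near that of all regions, and 17 of 23 genes fell (73.9%). Scn7a, a sodium channel gene, had a distal region of -4.71 and fell by 9.25. Plin2, the coat protein of lipid droplets, rose by 2.22 and had 1 higher distal region of 3.94, 2 lower ones down to -2.05 and 2 lower promoter regions. Pericyte and smooth muscle markers had 45 lower and 5 higher distal regions (90% lower, near the share of all), and 15 of 18 fell in RNA (83.3%). Without the sham library that stood apart 16 fell.

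At proliferation genes promoter accessibility and RNA went opposite ways on the deposited scale. All 30 cell cycle genes rose in RNA, with a median log2 change of 4.96, and all 33 of their promoter regions were lower on the deposited scale, with a median of -2.61 that lay within 0.12 of the promoter median. Ccne1, cyclin E, had RNA of 2.13, 0.901 and 2.26 CPM in sham and 64.8, 61.0 and 61.3 CPM on 0.2 kPa, a promoter region of -3.41, 6 lower distal regions down to -3.51 and 2 higher ones up to 2.43. E2f8, a cell cycle repressor, had 2 higher distal regions up to 3.49 and no lower one, and its RNA rose by 5.97. Of the 29 cell cycle genes with a promoter region, 14 lay above the promoter median of -2.73 and 15 below it, so the direction given for these promoters holds only on the deposited scale. Of the distal regions of the list 34 of 40 were lower (85%), the share of all distal regions.

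In the remaining lists of cell functions promoter regions were lower about as often as in the whole list (99.4%), which says nothing particular about these genes. RNA shares are read beside 31.9% higher and 39.2% lower over all genes. Contractile and cytoskeletal genes rose in 12 of 18 (66.7%) and fell in 5 (27.8%), counts that were the same without the sham library that stood apart. That library held 4136 CPM over the contractile list, against 8900 and 9832 in the other sham libraries. Senescence and p53 targets rose in 12 of 15 (80%) and fell in 1. Integrin and focal adhesion genes rose in 7 of 22 (31.8%), at the background, and fell in 14 (63.6%). Growth factors and cytokines rose in 17 of 27 (63%) and fell in 10 (37%), near the background. TGF-beta, BMP and WNT genes rose in 4 of 29 (13.8%) and fell in 21 (72.4%), with Smad3 at -2.84 and Axin2 at -5.12 in RNA. Over all 22 lists 511 promoter entries were lower and 6 higher, and list medians ran from -3.59 to -2.09.

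Distal regions nearest to markers of other cell types were described in the same way, with no test. Of those nearest to endothelial markers 15 of 53 (28.3%) were higher, of epithelial markers 6 of 21 (28.6%) and of mesothelial markers 4 of 7 (57.1%) and of leukocyte markers 2 of 14 (14.3%), beside 14.6% of all distal regions within 100 kb. Kdr, a VEGF receptor, had 2 higher distal regions up to 3.93 and 1 lower, and its RNA fell by 2.62. Flt1, another VEGF receptor, had 5 higher up to 3.46 and 2 lower, and rose by 1.203. Cldn18, an alveolar tight junction gene, had 3 up to 3.58 and fell by 5.94. Of 18 endothelial genes 14 fell in RNA (77.8%) and 1 rose (5.56%), beside 39.2% and 31.9% of all genes tested. Of 18 epithelial genes 17 fell (94.4%) and none rose. Without the sham library that stood apart 15 epithelial genes fell.

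The same markers were read as a check of the sorted cells. All 6 mesenchymal markers were present in every RNA library, with Pdgfra at 1193 to 1418 CPM in sham and 301 to 355 CPM on the gel. Summed leukocyte markers stood at 81.0 to 195 CPM in sham and 14.1 to 20.3 CPM on 0.2 kPa. Cd3g, Cd4, Cd8a, Nkg7, Spi1 and Pax5 were among those at 0 reads in all gel libraries. In sham these genes were already low, with at most 1.06 CPM in any library. Summed epithelial markers went from 245 to 484 CPM in sham to 28.6 to 31.7 CPM, with Sftpa1, Sftpd, Nkx2-1, Scgb1a1, Scgb3a2 and Krt8 at 0 on the gel. In sham Nkx2-1 reached at most 0.517 and Krt8 1.80 CPM, while Sftpa1 had 24.9 to 40.3 CPM. Endothelial markers went from 512 to 539 CPM to 176 to 207 CPM. Mesothelial markers went from 155 to 310 CPM to 116 to 144 CPM, with Muc16 at 0 (0.147 to 1.90 CPM in sham). Aldh1a2 held most of the mesothelial sum on the gel, with 108 to 131 CPM in sham and 101.4 to 120 CPM on the gel. Of 12 mesothelial genes 1 rose (8.33%, beside 31.9% of all genes tested) and 10 fell (83.3%, beside 39.2%). Among the 10 were Upk3b (-7.70), Gpm6a (-7.04) and Rspo1 (-5.08), and 8 fell without the sham library that stood apart. Eng held most of the endothelial sum on the gel, with 129 to 165 CPM. Their part in the losses of regions was not tested. In bulk samples fewer cells of a type and less accessibility or RNA per cell cannot be told apart.

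Some of the gained regions were also gained after injury in the animal. The day 14 list compares C57BL/6 cells after bleomycin with their own sham and shares no library with the soft gel list, though strain, reporter and sham differ. Of the 5725 regions higher on the gel, 2703 (47.2%) overlapped a region higher at day 14 and 4 a region lower at day 14. That took in 15.4% of the 17333 regions higher at day 14. Of the 41750 lower regions 2722 (6.52%) overlapped a region lower at day 14, 31.8% of those 8185, and 561 (1.34%) a region higher at day 14. At day 56 the lists were short, and 81 of the higher regions overlapped 1 of 908 higher regions.

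The overlap went with the size of the change, down for gains and up for losses. Of higher regions with a rise below 1.5, 55.3% were also higher at day 14, and of those above 4, 23.5%. Of lower regions outside promoters with a loss below 1.5, 1.49% were also lower at day 14, and of those above 4, 41.2%. Higher regions shared with day 14 held AP-1 in 72.0% and RUNX in 36.8%, against 56.7% and 24.6% of higher regions not in the day 14 list. TEAD stood at 30.4% and 30.8%. The shared regions were wider, with a median of 241 against 203 bases, and in the central 200 bases AP-1 was in 69.1% and 57.3%. Lower regions shared with day 14 held the E-box CAGCTG in 39.1% and CTCF in 8.19%, where all lower regions outside promoters had 28.8% and 17.7%. The shared lower regions include 70 promoter regions and were wider, with a median of 319 against 275 bases. In the central 200 bases the E-box was in 27.6% and 20.6%, and CTCF in 5.14% and 14.4%.

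**Figure D5:**
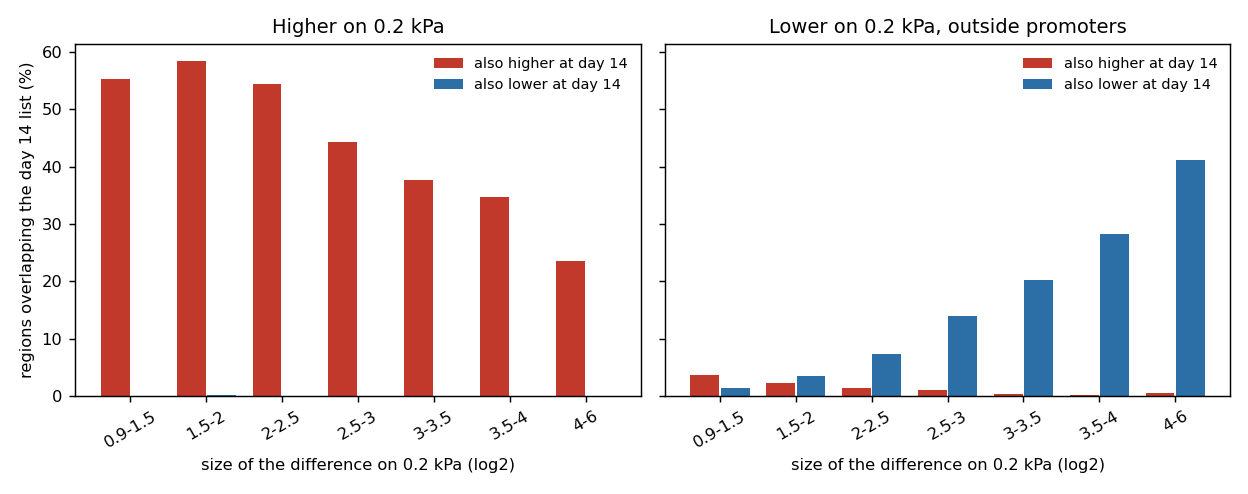
Share of regions that overlap a region of the day 14 list (y axis, %) by the size of the difference on 0.2 kPa (x axis, absolute log2), for higher regions (left) and lower regions outside promoters (right). Overlap with day 14 gains goes from 55.3% to 23.5% as rises grow, and overlap with day 14 losses from 1.49% to 41.2% as losses grow.

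Of the regions named above, 3 of the 6 largest rises were also higher at day 14: Hdgfl1 by 5.31, Fut9 by 4.99 and Rab3b by 2.17. Bbox1, with the largest loss, was lower at day 14 by 1.26. The list for 32 kPa against sham shares the sham libraries with the soft gel list, so its values stand only side by side. There the Iqschfp region differed by 5.21, the Fut9 region by 6.67, the Bbox1 region by -5.28 and the Eln promoter region by -5.07.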

How the data were processed

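ATAC-seq and RNA-seq libraries of CD1 lung mesenchyme (3 per group and assay) were compared, beside C57BL/6 lists. Per the file headers, the authors deposited for each region a log2 read concentration per group, a p-value and an FDR (DiffBind), filtered on FDR and fold; pooling and scaling are not described in the labels. The RNA values are the authors' normalized reads, a signal per gene as deposited. The submitters' processing notes name Bowtie2, MACS2, DiffBind, HOMER, HISAT2, featureCounts and DESeq2 with build mm10, without versions.

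Regions were annotated with RefSeq GRCm38.p6 (the assembly of mm10), coordinates used as given. A promoter region lay within 1 kb of a coding start site. Dividing each RNA library by its value of 1 read gave whole reads for 100% of values within 0.05 reads, 35858180 to 69524944 reads per library; counting error therefore limits mainly genes with few reads. The 855 rows without a gene name, 2.13 to 4.77% of reads, were left out of totals and tests. Genes with a mean of at least 1 were tested by limma 3.58.1 (R 4.3.3) on log2(value + 1), all 9 CD1 libraries in 1 fit, Benjamini-Hochberg adjusted p at most 0.05; a fold on this scale understates change in low genes. Alternatives used edgeR 4.0.16 and DESeq2 1.42.0. Motifs were counted with pysam 0.24.0 on both strands. The tests were tested on simulated data.

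Named were the 6 largest rises and falls, the same at promoters, the 5 genes with most higher and most lower regions, and up to 6 members per gene list by largest difference; others are said to be chosen after their values were seen, as are Col6a1, Mfap4, Ccne1, Kdr, Fosl2, Hlf, Per2 and the other list members given only as examples. Members and lists were chosen with earlier results of these data known. The replicate number was not used as a block, since same-numbered libraries did not deviate together. No per-sample column was left unused (0). A region and a marker gene that the naming rules would include are not reported here.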

Additional observations from a re-analysis of the deposited data

How the results depend on the processing

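The ATAC lists hold 1 value per group, so no library could be left out and no test of accessibility was run here; overlaps with the 32 kPa lists, planned as results, are not given because those lists share libraries with the soft gel list. Centring, chosen after seeing the data, gave 32978 higher and 14317 lower regions on the promoter median and 23580 and 23693 on the list median. Outside promoters only, also chosen after seeing the data, lower regions overlapped day 14 gains in 1.79% and losses in 9.65%, and day 56 gains in 0.135% and losses in 0.167%.

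In the central 200 bases AP-1 was in 11.8% of lower regions, TEAD in 28.6% of higher and 11.8% of lower, RUNX in 27.2% and 11.3%, CTCF in 1.956% and 13.2%, the E-box in 12.3% and 17.5%, and SP/KLF in 19.1% of lower. Outside promoters lower regions held AP-1 in 21.6%, TEAD in 21.4%, RUNX in 20.5%, CTCF in 17.7%, SP/KLF in 10.5% and the E-box in 28.8%.

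Of genes with only lower promoter regions, 35.4% were higher and 41.3% lower in RNA with values as deposited, 38.7% and 40.5% with the 6 libraries alone, and 39.0% and 37.9% where the start site lay inside a region, which also gave 85.7% higher for genes with only higher promoter regions. Genes with only higher promoter regions were higher in 60% with no filter on low values and in 59.0% with start sites within 2.5 kb. With a mean of at least 10, 39.0% of genes with only lower promoter regions were higher. Leaving out 1 library gave 35.2 to 38.1% higher and 35.9 to 38.4% lower. With the replicate block 38.05% were lower, and 5750 genes were called higher and 7077 lower. Same-numbered libraries had correlations of deviations from -0.0614 to 0.0686, so the numbers do not pair the libraries. On recovered reads edgeR's quasi-likelihood test called 5750 higher and 7056 lower, and DESeq2 5829 and 6858; leaving out 1 library gave 5423 to 5886 and 6607 to 7068. Of 200 genes named or listed, 0 of those called in the main fit changed direction in any of these fits. In at least 1 fit 11 lost and 6 gained a call. Direction changes of genes not called in the main fit were not counted. Among these, Fosl2 ran from -0.107 to 0.129 and Irf2bp2 from -0.272 to 0.042 with 1 library left out.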
